A study of Homo sapiens with 4 samples.

Results

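The APOBEC3 genes encode 7 cytidine deaminases, APOBEC3A, APOBEC3B, APOBEC3C, APOBEC3D, APOBEC3F, APOBEC3G and APOBEC3H, and all 7 were found by symbol among the 29833 genes of the expression table. The family was chosen by values already known from these same libraries, above all those of the combined treatment, so its differences are given as a description and with no test. The cells were Reh-6-MPR, a derivative of Reh, an established human line of B-cell acute lymphoblastic leukemia, that the study selected for resistance to 6-mercaptopurine (6-MP) by stepwise exposure and kept without the drug before the experiment. They are labelled wild type. They received PBS as vehicle, histidine at 4 mM, the thiopurine 6-MP at 1.0 μg/mL, or histidine and 6-MP together at those doses, for 48 h. RNA-seq libraries of polyadenylated RNA gave 1 library for each of the 4 treatments, so no difference below has a replicate check, and any library effect cannot be told apart from its treatment.

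APOBEC3 enzymes bind a zinc ion and turn cytosine into uracil in single-stranded DNA. In lymphoid cells they are best known for restricting retroviruses and retrotransposons, whose reverse-transcribed DNA they mutate or whose copying they block. APOBEC3A, APOBEC3B and some forms of APOBEC3H can enter the nucleus, and APOBEC3A and APOBEC3B are also known as sources of C-to-T mutations in tumour genomes. The genes arose by duplication and carry either 1 or 2 zinc-binding domains.

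The 7 genes lie head to tail on the plus strand of chromosome 22 (GRCh38) over 151.327 kb, in the order APOBEC3A (38952741 to 38992778), APOBEC3B (38982347 to 38992804), APOBEC3C (39014257 to 39020352), APOBEC3D (39021113 to 39033277), APOBEC3F (39040604 to 39055972), APOBEC3G (39077067 to 39087743) and APOBEC3H (39097224 to 39104067). In their main GENCODE 29 transcripts, APOBEC3A, APOBEC3C and APOBEC3H code for 199, 190 and 183 residues with 1 zinc motif each. APOBEC3B, APOBEC3D, APOBEC3F and APOBEC3G code for 382, 386, 373 and 384 residues with 2 motifs each. The coding bases of the last or single motif of 5 members are shown because they tell which genes could share reads. Each stretch lies within 1 coding exon and is written 5′ to 3′, and capitals mark the codons of the histidine, the glutamate and the pair of cysteines of the motif.
APOBEC3H, chr22:39101246-39101350, plus strand: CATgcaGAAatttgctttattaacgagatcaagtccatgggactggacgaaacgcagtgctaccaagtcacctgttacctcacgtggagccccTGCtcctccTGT
APOBEC3B, chr22:38991365-38991475, plus strand: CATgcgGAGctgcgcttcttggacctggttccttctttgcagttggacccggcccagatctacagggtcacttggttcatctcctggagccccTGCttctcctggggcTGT
APOBEC3G, chr22:39086312-39086416, plus strand: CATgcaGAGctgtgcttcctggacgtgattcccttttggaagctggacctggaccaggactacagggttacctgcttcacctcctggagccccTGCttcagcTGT
APOBEC3F, chr22:39052095-39052199, plus strand: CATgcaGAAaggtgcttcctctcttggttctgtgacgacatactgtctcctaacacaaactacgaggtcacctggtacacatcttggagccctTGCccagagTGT
APOBEC3C, chr22:39017787-39017891, plus strand: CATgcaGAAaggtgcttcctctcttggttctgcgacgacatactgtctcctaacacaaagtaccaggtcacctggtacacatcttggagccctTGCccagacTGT

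The motif of APOBEC3A (chr22:38961420-38961530) was identical to that of APOBEC3B over all 111 bases, and that of APOBEC3D (chr22:39031715-39031819) to that of APOBEC3F over all 105. APOBEC3C matched APOBEC3D and APOBEC3F at 96.2% of bases, and APOBEC3B matched APOBEC3G at 77.5%. APOBEC3H had 58.5% to 61.9% identity to each of the others, so its nearest match was more distant than that of any other member. Over all annotated transcripts, 37.8% of the 50-base stretches of APOBEC3B occurred unaltered in another member, most often APOBEC3A. The share was 24.5% for APOBEC3A, 20.8% for APOBEC3F, 14.8% for APOBEC3D, 7.06% for APOBEC3G and 1.14% for APOBEC3C, while none of the 1342 stretches of APOBEC3H was shared. The exons of APOBEC3A and APOBEC3B also overlap by 348 bases, which is 18.4% of the exon bases of APOBEC3B. How reads in such stretches were assigned is not given in the sources used here, so the values of APOBEC3A and APOBEC3B, and less so of APOBEC3D and APOBEC3F, are uncertain in a way that those of APOBEC3H are not.

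The deposited values are FPKM, in which reads are scaled to gene length and to library size. The reads behind them came out whole for 29828 genes, including all 7 APOBEC3 genes, and the library totals were 12899122 to 15486376 reads, lowest for the combined treatment. Fold changes are differences of log2(FPKM + 1), which understate the change of low genes. A gene was compared with the rest where its mean FPKM over the 4 libraries reached 1, as 12750 genes did, and was counted where its absolute log2 fold change reached 1. Of the 7 members, 5 reached that mean, namely APOBEC3B, APOBEC3C, APOBEC3F, APOBEC3G and APOBEC3H. APOBEC3B and APOBEC3H would also have passed on the mean of the other 3 libraries, at 1.12 and 1.33 FPKM. Intervals are exact 95% intervals of the reads, cover counting error only and compare libraries, not treatments. The combined library was higher in many genes, with 639 genes past the threshold upward (5.01%) and 193 downward (1.51%) against vehicle, and a median log2 fold change of 0.13 over the genes compared. After scaling by the median ratio over the genes above 0 in all 4 libraries, that median was -0.07. The split was then 393 upward to 340 downward over 12687 genes.

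APOBEC3H and APOBEC3B, 2 of the 7 members, passed the fold threshold upward in the combined library, against each of the other 3 libraries. APOBEC3F and APOBEC3G were also higher than in every other library, by less than the threshold. APOBEC3C, the most abundant member, was close to its level elsewhere. APOBEC3D was low throughout and APOBEC3A was at or near 0. None of the 7 passed the threshold with histidine alone or 6-MP alone.

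**Figure D1:**
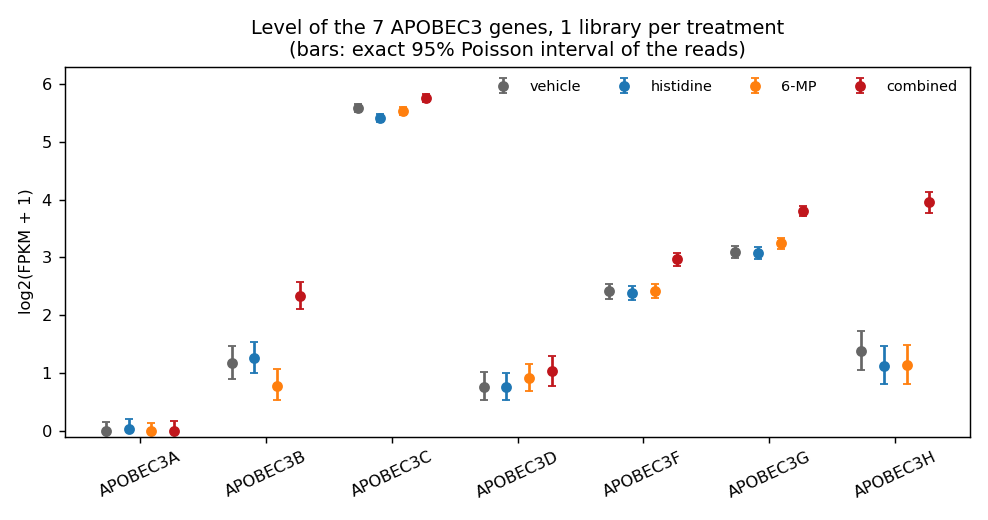
The log2(FPKM + 1) of each APOBEC3 gene (vertical axis) is plotted for the 4 libraries, 1 point per treatment, with bars for the exact 95% Poisson interval of the reads. The combined library (red) lies far above the other 3 for APOBEC3H, clearly above them for APOBEC3B, APOBEC3F and APOBEC3G, and near them for APOBEC3C, whose difference from vehicle turns negative under median-ratio scaling.

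APOBEC3H, a deaminase with a single domain that restricts retroviruses and whose stability differs between human haplotypes, had an FPKM of 1.62 with vehicle, 1.19 with histidine, 1.20 with 6-MP and 14.5 under the combined treatment, from 29, 23, 23 and 234 reads in that order. The first 3 libraries lie close together and the combined one stands far above them. In reads per total, the combined library held 8.96 times the APOBEC3H of vehicle (95% interval 6.07 to 13.7), 12.2 times that of histidine (7.95 to 19.7) and 12.1 times that of 6-MP (7.87 to 19.5). The log2 fold changes were 2.57 against vehicle, 2.83 against histidine and 2.82 against 6-MP, which placed the gene at rank 11, 6 and 4 from the top of the 12750 genes. Under median-ratio scaling they were 2.36, 2.64 and 2.62.

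APOBEC3B, a nuclear deaminase with 2 domains, had an FPKM of 1.25 with vehicle, 1.40 with histidine, 0.722 with 6-MP and 4.05 under the combined treatment, from 34, 41, 21 and 99 reads. The combined library was the highest and 6-MP alone the lowest. The read ratio of the combined library was 3.23 to vehicle (2.17 to 4.92), 2.90 to histidine (1.995 to 4.28) and 5.61 to 6-MP (3.48 to 9.46). The log2 fold changes of 1.16 and 1.07 against vehicle and histidine were just inside the threshold, at rank 433 and 448, and both fell just outside it under median-ratio scaling, at 0.99 and 0.92. Against 6-MP the value was 1.55, and 1.38 after that scaling. The next member outside the threshold was APOBEC3G, at 0.70 against vehicle.

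APOBEC3G, a deaminase with 2 domains that is packaged into virions of HIV-1 lacking Vif, had an FPKM of 7.56 with vehicle, 7.42 with histidine, 8.50 with 6-MP and 12.9 under the combined treatment, from 582 to 897 reads. The combined library was the highest. Its read ratio to vehicle was 1.71 (1.54 to 1.90), to histidine 1.74 (1.57 to 1.93) and to 6-MP 1.52 (1.38 to 1.68). Its log2 fold change against 6-MP was 0.55 as deposited and 0.34 under median-ratio scaling. APOBEC3F, which restricts the same viruses, had an FPKM of 4.34, 4.23 and 4.34 with vehicle, histidine and 6-MP and 6.81 with the combined treatment. Its first 3 values lie within 0.03 of each other on the log2 scale. The read ratio of the combined library was 1.57 to vehicle (1.36 to 1.81), 1.61 to histidine (1.39 to 1.85) and 1.57 to 6-MP (1.36 to 1.81). The log2 fold change of APOBEC3F against vehicle was 0.55 as deposited and 0.34 under median-ratio scaling, and that against 6-MP 0.55 and 0.35.

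APOBEC3C, a deaminase with a single domain and weak antiviral activity, was the highest member in every library, with an FPKM of 46.8 with vehicle, 41.6 with histidine, 45.3 with 6-MP and 52.9 under the combined treatment. The read ratio to vehicle was 1.13 (1.06 to 1.21), to histidine 1.27 (1.19 to 1.36) and to 6-MP 1.17 (1.09 to 1.25). The log2 fold change was 0.17 against vehicle and 0.22 against 6-MP as deposited, but -0.07 and -0.01 under median-ratio scaling, so its direction depends on the scaling. Against histidine it was 0.34.

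APOBEC3D, with 2 domains and a modest effect on HIV-1, had an FPKM of 0.690 with vehicle, 0.689 with histidine, 0.876 with 6-MP and 1.04 under the combined treatment, from 25 to 34 reads. The read ratio of the combined library to vehicle was 1.51 with an interval of 0.874 to 2.64, and the intervals of its ratios to the other libraries included 1 as well. A difference in APOBEC3D was not detectable at this depth. APOBEC3A, a strong deaminase typical of myeloid cells and inducible by interferon, was at 0 in 3 libraries and had 1 read with histidine (FPKM 0.0274). A count of 0 allows up to 3 reads, which is an FPKM of 0.0889 with vehicle, 0.0830 with 6-MP and 0.0987 with the combined treatment.

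**Figure D2:**
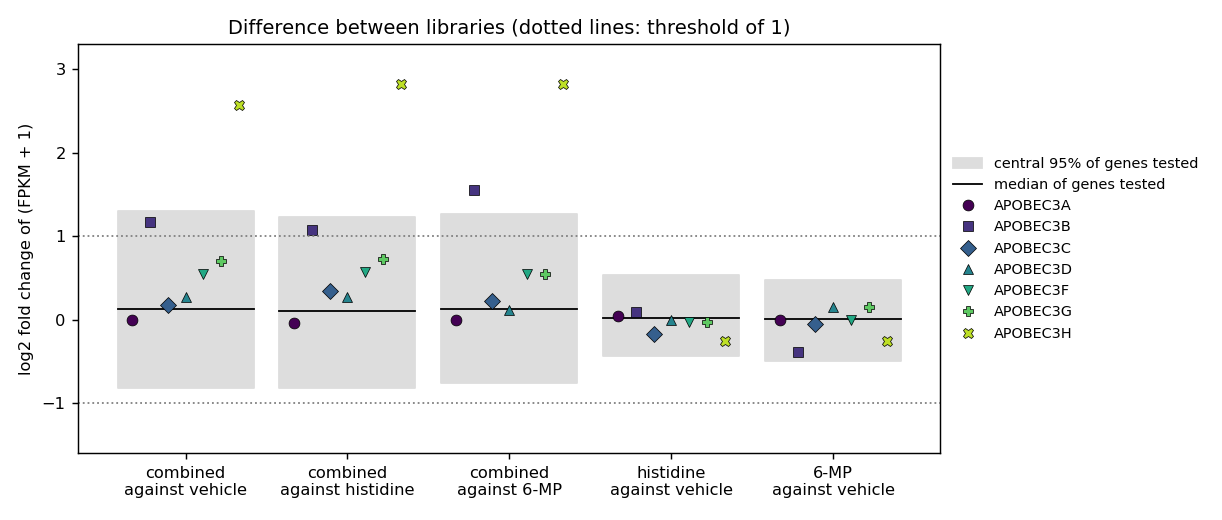
Log2 fold change of (FPKM + 1) of each APOBEC3 gene (vertical axis) is shown for the 5 comparisons between libraries, with the central 95% of the 12750 genes compared as a grey band and their median as a line. APOBEC3H lies outside the band in all 3 comparisons of the combined treatment, APOBEC3B only in that against 6-MP, and all members lie inside it for histidine alone and 6-MP alone. APOBEC3C is at 0.17 against vehicle, which becomes -0.07 under median-ratio scaling.

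Of the 5 members compared, 2 passed the threshold upward and 0 downward with the combined treatment, whichever library it was set against. Over all genes, the upward share was 5.01% against vehicle, 4.15% against histidine and 4.82% against 6-MP, and the share in either direction against vehicle was 6.53%. Since the family was selected on these comparisons, nothing is read from that contrast of shares. The median log2 fold change of the 5 members was 0.70 against vehicle, 0.73 against histidine and 0.55 against 6-MP, beside 0.13, 0.11 and 0.13 over all genes compared. These 3 comparisons use the same combined library. The ratio could be computed for the 6 members other than APOBEC3A, and in each of the 3 comparisons the interval lay above 1 for 5 of them and included 1 for APOBEC3D. The 5 include APOBEC3C, whose log2 fold changes against vehicle and 6-MP turn to -0.07 and -0.01 under median-ratio scaling. The ratios use the library totals, while the median-ratio size factor was 1.14 for the combined library and 0.959 for vehicle. The share of all genes with an interval above 1 was not computed, so nothing is read from the number of members.

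With either agent alone the members lay closer to vehicle. For histidine alone against vehicle 1.33% of all genes passed the threshold in either direction, and for 6-MP alone 1.18%, against 0 of the 5 members in both. The log2 fold changes of these members ran from -0.26 for APOBEC3H to 0.09 for APOBEC3B with histidine and from -0.39 for APOBEC3B to 0.15 for APOBEC3G with 6-MP. Among the read ratios of the 6 members other than APOBEC3A, 2 had an interval that did not include 1, and the share over all genes was not computed. APOBEC3C with histidine stood at 0.888 times vehicle (0.831 to 0.950) and APOBEC3G with 6-MP at 1.12 times vehicle (1.01 to 1.26). For APOBEC3B with 6-MP the ratio was 0.576 with an interval of 0.318 to 1.02.

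The departure from additivity was the effect of both agents on the log2 scale less the summed effects of each alone, all against vehicle. It was 3.08 for APOBEC3H and 1.46 for APOBEC3B, both at or above 1, as in 4.85% of all genes. The values were 0.58 for APOBEC3F and 0.58 for APOBEC3G, 0.39 for APOBEC3C and 0.12 for APOBEC3D, beside a median of 0.11 over all genes compared. Each rests on 4 single libraries and includes the combined one that the choice of the family used.

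FPKM is per length, so levels can be set against each other within a library. The length behind APOBEC3F, 5215 bases, exceeds the 3242 of GENCODE 29, and at the latter its FPKM would be 6.98 with vehicle and 11.0 with the combined treatment, near those of APOBEC3G. With vehicle the order was APOBEC3C, APOBEC3G, APOBEC3F, APOBEC3H, APOBEC3B, APOBEC3D and APOBEC3A, where the counting intervals of APOBEC3H and APOBEC3B overlapped, as did those of APOBEC3B and APOBEC3D. With histidine APOBEC3B stood before APOBEC3H, and with 6-MP APOBEC3D stood before APOBEC3B, again with overlapping intervals. With the combined treatment APOBEC3H took the place after APOBEC3C, at 14.5 FPKM (12.7 to 16.5). It did not differ from APOBEC3G, at 12.9 (12.1 to 13.8), beyond counting error. APOBEC3F, APOBEC3B, APOBEC3D and APOBEC3A followed, each apart from the one before it at the lengths behind the deposited values. At the GENCODE 29 lengths APOBEC3F and APOBEC3G would be at 11.0 and 12.8 FPKM with the combined treatment. With vehicle they would be at 6.98 and 7.48, so how far apart they stand depends on the length used.

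The summed FPKM of the family came to 62.3 with vehicle, 56.6 with histidine and 60.9 with 6-MP, and to 92.3 when both were given. Without APOBEC3C the sums were 15.5, 15.0, 15.6 and 39.3. Of the 29.98 FPKM by which the combined library exceeded vehicle, APOBEC3H held 43.0%, APOBEC3C 20.4%, APOBEC3G 17.9%, APOBEC3B 9.32%, APOBEC3F 8.23% and APOBEC3D 1.17%. Under median-ratio scaling the excess was 16.3, of which APOBEC3H made up 11.1, while APOBEC3C gave a difference of -2.20. The share of APOBEC3H in the sum went from 2.60% with vehicle to 15.7% with the combined treatment, and that of APOBEC3C from 75.2% to 57.4%. The shares of APOBEC3F were nearly level, at 6.97% and 7.38%. In RNA from a whole culture, a change in the number of cells that express a gene and a change in RNA per cell cannot be told apart.

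The neighbourhood of the cluster was read out to 200 kb beyond its ends, where 6 other protein-coding genes lie, 5 of them with a mean FPKM of at least 1. With the combined treatment against vehicle, 0 of these 5 passed the threshold in either direction, beside 6.53% of all genes. The log2 fold changes of the 5 ran from -0.58 to 0.92 with a median of 0.58. CBX7, a Polycomb protein gene and the next one beyond APOBEC3H, was at 0.58, from 0.861 FPKM with vehicle to 1.78. On the other side, CBX6, also of the Polycomb group, was at -0.58, NPTXR, the neuronal pentraxin receptor gene, at 0.92, DNAL4, a dynein light chain gene, at 0.67 and SUN2, a nuclear envelope gene, at 0.16. PDGFB, which encodes a growth factor subunit, was at 0.0175 FPKM with vehicle and at 0 in the other libraries. APOBEC3H, at 2.57, lay only 9.481 kb from the end of APOBEC3G, at 0.70.

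**Figure D3:**
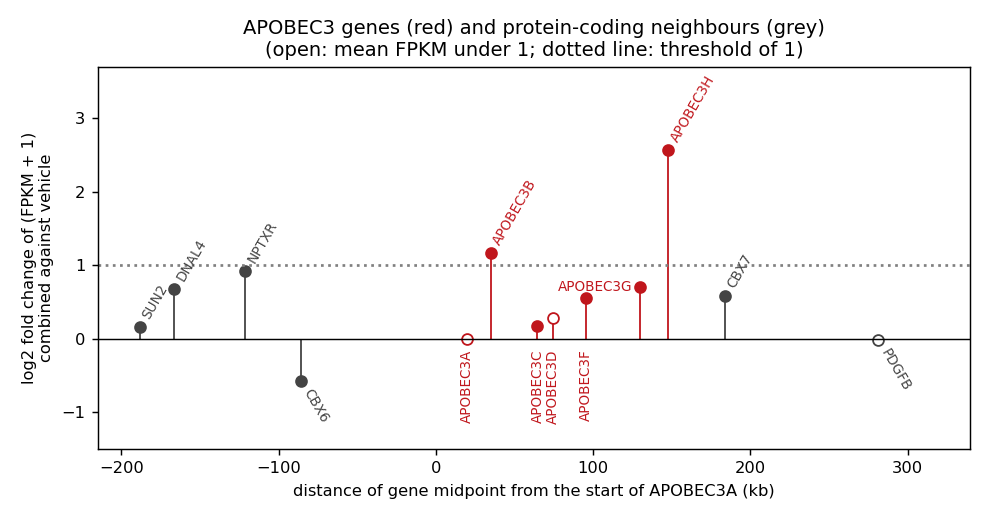
Each gene is placed by the distance of its midpoint from the start of APOBEC3A (horizontal axis, kb) with its log2 fold change of (FPKM + 1) for the combined treatment against vehicle (vertical axis). APOBEC3 genes are red, neighbours grey, and open circles have a mean FPKM under 1. APOBEC3H and APOBEC3B alone lie above the dotted threshold of 1, and the neighbours lie between -0.58 and 0.92. APOBEC3C is at 0.17 as deposited and at -0.07 under median-ratio scaling.

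Of the promoters of the 7 genes, that of APOBEC3H was found in the RefSeq promoter table (GRCh38.p14). It is shown because this member differed most between libraries. The stretch of 280 bases, chr22:39096994-39097273 on the plus strand, ends 30 bases into the transcript as RefSeq places its start. Capitals mark both copies of an exact direct repeat of 23 bases.
APOBEC3H promoter: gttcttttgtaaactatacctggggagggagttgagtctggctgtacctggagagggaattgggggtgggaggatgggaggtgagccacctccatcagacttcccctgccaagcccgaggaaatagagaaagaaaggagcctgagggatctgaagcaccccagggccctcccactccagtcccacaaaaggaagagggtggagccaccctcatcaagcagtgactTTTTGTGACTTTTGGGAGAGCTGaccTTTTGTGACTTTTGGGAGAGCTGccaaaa

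The copies of the repeat start at base -25 and base 2 relative to the RefSeq start of transcription, and 1.97% of 35116 promoters held a direct repeat of at least that length. The deposited position of APOBEC3H begins upstream of the RefSeq start, at 39097224, so distances from it would differ. Both strands of 300 bases, from 250 before the start to 50 after it, were searched for 10 motifs, and no exact match was found. They were the p53 half-site (found in 6.63% of all promoters), the core of the interferon-stimulated response element (3.57%), the gamma-activated site TTCNNNGAA (7.66%), the kappaB site (5.91%), the AP-1 site TGACTCA (4.95%), the RUNX site TGTGGT (13.1%), E2F sites TTTGGCGC (0.652%) and TTTCCCGC (1.63%), the cell cycle element TTTGAA (15.2%) and the TATA box TATAAA (11.5%). This says only that exact matches are not in this window, which runs past the end of the printed stretch. A site that differs in a single letter was not counted. An example is aaaagtgaaa, across that end, which misses the interferon core searched by its first letter.

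The genes whose profile over the 4 libraries was nearest to that of APOBEC3H, by Euclidean distance of mean-centred log2(FPKM + 1) values, were RCN3, which encodes a calcium-binding protein of the endoplasmic reticulum (distance 0.22), BTG2, an antiproliferative p53 target (0.30), and PLK2, a polo-like kinase gene (0.33). RCN3 went from 0.697 FPKM with vehicle to 8.65 with the combined treatment, BTG2 from 12.1 to 72.4 and PLK2 from 1.89 to 14.2. RCN3 was under 1 FPKM in the other libraries, so it reached the mean of 1 only through the combined one. Nearest to APOBEC3B, with its low value under 6-MP alone, were PARVG, a gene for an actin-binding parvin (0.069), ERVH48-1, derived from a retroviral envelope gene (0.11), and C1orf54 (0.12). PARVG had an FPKM of 1.44 with vehicle, 1.57 with histidine, 0.960 with 6-MP and 4.62 under the combined treatment. With 4 libraries such likeness is a description only.

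The other APOBEC genes read here were hardly expressed. APOBEC2, of unsettled deaminase activity, was at 0.513 FPKM with vehicle and 0.855 with the combined treatment, and APOBEC4 was at 0 and 0.0836, the latter from 3 reads. Of 6 other deaminases of RNA or nucleosides, 0 passed the threshold for the combined treatment against vehicle, a comparison in which 5.01% of all genes passed upward and 6.53% in either direction. The largest differences were -0.82 for ADAT2 and -0.37 for ADAT3, subunits of the tRNA adenosine deaminase.

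Uracil made by APOBEC3 enzymes is removed by base excision repair, and of 13 genes of that pathway 0 passed the threshold in the same comparison, with a median log2 fold change of 0.11. For this count and those that follow, 5.01% of all genes passed upward and 6.53% in either direction. XRCC1, the scaffold of single-strand break repair, was nearest to it at 0.93 (13.2 to 26.2 FPKM), followed by MBD4, a glycosylase for mismatched thymine and uracil, at 0.69. Of 5 genes of the dUTP and thymidylate pool 0 passed. TK1, thymidine kinase, was at 0.79 and DCTPP1, a dCTP pyrophosphatase, at -0.41. Of 14 other retroviral restriction factors 1 passed, TRIM22, an interferon-inducible antiviral gene, at 1.07 (13.9 to 30.2 FPKM), and the median was 0.12. SAMHD1, also of the 14, was at 0.980 FPKM with vehicle and 1.77 with the combined treatment. It reached the mean FPKM of 1 only through the combined library.

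Several APOBEC3 genes are known to respond to interferon. Of 16 genes of the type I interferon response 1 passed with the combined treatment against vehicle. Of all genes 5.01% passed upward and 6.53% in either direction, shares that also stand beside the counts of 0 below. The gene was USP18, which removes ISG15 from proteins, at 1.10 (7.44 to 17.1 FPKM), and the median was 0.51. MX1, also of the 16, reached the mean FPKM of 1 only through the combined library, at 1.59 FPKM. Of 8 genes of nucleic acid sensing 0 passed, with IFNAR1, an interferon receptor chain, at 0.50 and TLR3, a sensor of double-stranded RNA, at 0.45. Of 12 NF-kappaB factors and targets 0 passed, with RELB, a subunit of the non-canonical pathway, at 0.99 and ICAM1, an adhesion molecule gene, at 0.82. Of 12 genes of the DREAM and MYB-MuvB complex, which represses or activates cell cycle genes, 0 passed, with E2F4 at -0.44 and LIN54 at 0.41, a DNA-binding subunit each. Of 17 genes of p53 and its targets, 12 passed upward, beside 5.01% of all genes, with a median of 1.41. The 12 include FAS, at 0.589, 0.486 and 0.362 FPKM with vehicle, histidine and 6-MP and 3.81 with the combined treatment. FAS reached the mean FPKM of 1 only through the combined library. The largest were PHLDA3, an inhibitor of AKT, at 3.07 (1.34 to 18.6 FPKM), BTG2 at 2.48, TP53INP1, a stress-induced p53 cofactor, at 2.42 and BBC3, which encodes the proapoptotic PUMA, at 2.40. Their part in the APOBEC3 values was not tested.

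Markers of cell types were read beside the APOBEC3 values. The 13 B-lineage genes found had a summed FPKM of 1970 to 2082 in the first 3 libraries and 1909 with the combined treatment. Beside 6.53% of all genes in either direction, 0 of the 13 passed the threshold against vehicle. Their log2 fold changes against vehicle ran from -0.59 to 0.74, the highest being MME, which encodes CD10. Of 12 T and NK cell markers 4 were found. Of 2 with a mean FPKM of at least 1, 1 passed upward against vehicle, beside 5.01% of all genes. The list had a summed FPKM of 13.4 to 15.0 in the first 3 libraries and 36.0 with the combined treatment. Most of it was TRAC, the constant region of the T cell receptor alpha chain, at 32.1 FPKM with the combined treatment and a log2 fold change of 1.39. NKG7, a gene of cytotoxic granules, was at 1.74 FPKM with vehicle and 3.62 with the combined treatment, with log2 fold changes of 0.75 against vehicle and 1.12 against 6-MP. CD8A, the coreceptor of cytotoxic T cells, was at 0 with vehicle and 0.229 with the combined treatment, GNLY, the gene of the cytotoxic protein granulysin, was at 0 in 3 libraries, and the genes of CD3 were not analysed here. Of 11 monocyte and granulocyte markers 8 were found. Of 2 with a mean FPKM of at least 1, 1 passed upward against vehicle, beside 5.01% of all genes. The list had a summed FPKM of 30.1 to 34.4 in the first 3 libraries and of 62.9 with the combined treatment. ITGAM, an integrin chain gene of myeloid cells, was at 2.28 (3.14 to 19.2 FPKM), while CD14, the monocyte coreceptor for lipopolysaccharide, was at 0.170 with vehicle and 0.0470 with the combined treatment, from 4 reads and 1 read. Higher with the combined treatment than with vehicle were MPO, the gene of myeloperoxidase (27.7 to 41.0 FPKM), LYZ, the lysozyme gene (0.324 to 1.39), and CSF1R, a growth factor receptor gene of macrophages (0.624 to 1.25). The part of these markers in the APOBEC3 values was not tested.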

How the data were processed

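RNA of Reh-6-MPR cells was measured after vehicle, histidine, 6-MP or both, with 1 library per treatment and the groups taken from the labels. The libraries were made with a stranded mRNA kit. The authors deposited FPKM values per gene. The submitters' processing notes name Trimmomatic, HISAT2, Cufflinks, HTSeq and GRCh38 (hg38). Whether counting used strand or reads shared between genes is not given in the sources used here.

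Since FPKM values of a gene are whole multiples of 1 read, reads were worked back from them and came out whole for 29828 of 29833 genes. For 2002 genes the length that the steps gave was multiplied to come near the GENCODE 29 length, which was not needed for any APOBEC3 gene. The recovered reads summed to 100.41% to 100.44% of the library totals (12899122 to 15486376 reads), so some lengths outside the family may be too large. Depth set the precision, and a count of 0 was given as allowing 3 reads.

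Fold changes were differences of log2(FPKM + 1) over the 12750 genes whose mean FPKM reached 1, counted from an absolute value of 1. Levels had exact Poisson intervals and ratios exact Clopper-Pearson intervals at 95%. With 1 library per treatment no test between treatments was run. The APOBEC3 members and all gene lists were chosen with earlier results of these data known. Named were the members, the other APOBEC genes, in each list the genes past the threshold for the combined treatment against vehicle (at most the 4 largest, or the 2 largest where none passed), protein-coding genes within 200 kb, and the 3 nearest profiles for each of the 2 members with the largest range. Other marker genes entered sums only, and CD8A, GNLY, NKG7, CD14, MPO, LYZ and CSF1R were named after their values were seen. Some genes that this rule names are not reported here. Motif, transcript and promoter sequences came from GENCODE 29 and RefSeq. Results were recomputed without the filter, with a pseudocount of 0.1, a mean FPKM of at least 5, median-ratio scaling, TPM scaling and a threshold of 1.5. The scaled family sum and levels at annotated lengths were added after seeing the data. Read recovery and fold calls were also tested on simulated data. The tools were scipy 1.17.1, pandas 2.3.3, numpy 2.4.6 and matplotlib 3.10.9 under Python 3.11.15.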

Additional observations from a re-analysis of the deposited data

Results flagged for a closer look

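In 6 members an agent went one way alone and the other way when the second agent was present. These differences were not tested, since each value compares 2 single libraries, and they share libraries with each other. The share of all genes with such a turn was not computed, so nothing is read from the number of members. Over all genes compared, the median was 0.015 for histidine alone and 0.0039 for 6-MP alone. For the combined library it was 0.11 against histidine and 0.13 against 6-MP. In APOBEC3H and APOBEC3B the value with the second agent reached 1. The log2 fold change of APOBEC3B for 6-MP was -0.39 without histidine and 1.07 with it. That of APOBEC3H for histidine was -0.26 without 6-MP and 2.82 with it, and that for 6-MP was -0.25 without histidine and 2.83 with it.

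In the other members both values were under 1 in size, and several of the values alone were near 0. For histidine, without 6-MP and then with it, APOBEC3C went from -0.17 to 0.22, APOBEC3D from -0.0009 to 0.12, APOBEC3F from -0.03 to 0.55 and APOBEC3G from -0.02 to 0.55. For 6-MP, without histidine and then with it, APOBEC3C went from -0.05 to 0.34 and APOBEC3F from -0.0007 to 0.58. The 0.22 of APOBEC3C becomes -0.01 under median-ratio scaling. Of the read ratios for these agents alone, that of APOBEC3C for histidine had an interval below 1 and the others included 1.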

How the results depend on the processing

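The count of 2 members past the threshold for the combined treatment held against all 3 libraries with a pseudocount of 0.1, with no filter on low values and with TPM scaling. In that order, the share of all genes past it against vehicle in either direction was 11.9%, 4.17% and 17.3%, beside 6.53% in the main setting. With a minimum mean FPKM of 5, where APOBEC3C and APOBEC3G alone were compared, the count was 0 against each library, because APOBEC3H (4.63) and APOBEC3B (1.85) were left out. Under median-ratio scaling it was 1 against vehicle and 1 against histidine, and with a threshold of 1.5 it was also 1 against both, APOBEC3H in each case, while against 6-MP it stayed at 2 under both. The counts for histidine alone and 6-MP alone were 0 under every alternative, beside 0.231% to 6.47% of all genes. Over the pseudocount and both scalings APOBEC3H ran from 2.36 to 3.09 against vehicle, 2.64 to 3.50 against histidine and 2.62 to 3.49 against 6-MP.

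Signs turned for APOBEC3C under median-ratio scaling (-0.07 against vehicle, -0.01 against 6-MP) and for differences near 0 in APOBEC3D with histidine (0.0082) and APOBEC3F with 6-MP (0.013) under TPM scaling. Over all genes, 832 of 12750 passed in either direction against vehicle (6.53%), but 1513 with a pseudocount of 0.1 (11.9%). The number was 3106 of 17949 with TPM scaling (17.3%), 303 of 7369 with a minimum mean FPKM of 5 (4.11%) and 266 with a threshold of 1.5 (2.09%). TPM values are larger than FPKM here, since the FPKM of a library sum to 242630 to 248756. The filter and the pseudocount stayed at 1 for TPM, so more genes were compared. Against histidine 529 genes passed upward and 178 downward, or 346 and 294 under median-ratio scaling. Against 6-MP the split was 614 to 153, or 359 to 279 under that scaling. No paired analysis was possible because no treatment has a second library, and leaving out a replicate did not apply. The depth limits APOBEC3A and APOBEC3D most, and APOBEC3H outside the combined treatment rests on 23 to 29 reads.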
